A study of Mus musculus with 6 samples.

Results

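The genes described here are 10 markers and effectors of T cells and natural killer (NK) cells: Ifng, Gzmb, Prf1, Nkg7, Klrd1, Il2ra, Il2rb, Cd3e, Cd4 and Cd8a. They were chosen by name, with earlier results of these data known. All 10 stood among the 14669 rows of the deposited table of liver expression. That table holds FPKM (fragments scaled to gene length and to all counted fragments) and lists only rows above 0 in all 6 libraries. The livers came from wild-type male C57BL/6J mice of 8 weeks. Plasmid (25 µg, in 2.5 ml saline) was delivered by hydrodynamic injection, a large and fast injection that drives DNA mainly into liver cells. The plasmid was plko-scramble, a control hairpin, or plko-shBicd2, a hairpin against Bicd2, which encodes an adaptor of the dynein motor. All mice received the lectin concanavalin A (ConA, 15 mg/kg, i.v.) on day 3 and gave their livers after 6 h, so the data hold the plasmids' difference during hepatitis and no untreated level. There were 3 libraries per group, Sc3, Sc4 and Sc5 for scramble and sh1, sh3 and sh6 for shBicd2. No label states whether each library is a separate animal, so the p-values speak only to variation among these samples, and that variation may be technical.

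ConA crosslinks surface glycoproteins and activates T cells, including NKT cells, and the hepatitis it causes in mice depends on their cytokines. Activated T and NK cells secrete interferon gamma (Ifng) and kill through granules that carry perforin and granzymes. The high-affinity interleukin 2 receptor is assembled on activation, when its alpha chain (Il2ra, CD25) joins the beta chain (Il2rb) and the common gamma chain. CD3, CD4 and CD8 are parts of the T cell's antigen recognition apparatus and mark the cells whether or not they are activated.

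Ifng, Il2ra, Gzmb, Prf1 and Il2rb were lower in every shBicd2 library than in any scramble library, and the 4 of them with an entry are shown with the sequence just before their annotated start. RefSeq's promoter table for GRCm38.p6 held 7 of the 10 genes. Each window runs from 250 to 21 bases before the start, in the direction of transcription, and holds 230 bases. Capitals mark matches on either strand to the NFAT core GGAAA, the AP-1 site TGANTCA, the CRE core TGACGT, the T-box core GGTGTGA and the TATA box TATAAA.
Ifng, chr10:118440796-118441025, plus strand: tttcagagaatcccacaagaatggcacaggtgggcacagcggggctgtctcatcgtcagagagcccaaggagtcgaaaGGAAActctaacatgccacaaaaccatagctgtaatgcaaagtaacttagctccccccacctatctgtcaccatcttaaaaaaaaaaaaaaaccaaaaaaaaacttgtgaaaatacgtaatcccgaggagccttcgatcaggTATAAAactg
Il2ra, chr2:11642542-11642771, plus strand: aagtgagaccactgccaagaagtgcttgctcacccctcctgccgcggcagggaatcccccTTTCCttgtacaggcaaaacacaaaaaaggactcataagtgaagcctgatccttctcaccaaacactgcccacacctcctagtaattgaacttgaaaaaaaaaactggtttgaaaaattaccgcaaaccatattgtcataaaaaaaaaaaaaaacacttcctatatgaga
Gzmb, chr14:56262355-56262584, minus strand: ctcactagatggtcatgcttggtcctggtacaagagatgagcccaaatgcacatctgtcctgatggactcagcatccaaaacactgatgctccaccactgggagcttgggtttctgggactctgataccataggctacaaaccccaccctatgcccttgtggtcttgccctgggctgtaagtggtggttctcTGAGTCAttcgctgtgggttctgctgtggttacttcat
Prf1, chr10:61297586-61297815, plus strand: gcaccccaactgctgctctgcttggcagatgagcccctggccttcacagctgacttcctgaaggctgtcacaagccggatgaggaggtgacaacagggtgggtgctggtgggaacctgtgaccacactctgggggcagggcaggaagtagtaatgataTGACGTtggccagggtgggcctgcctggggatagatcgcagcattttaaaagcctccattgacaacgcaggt

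None of these motifs stood in all 4 windows. The NFAT core stood in the Ifng and Il2ra windows, and 52.6% of the 32851 windows of the same length in the table held it. The AP-1 site in the Gzmb window is held by 6.3% of windows, the CRE core in the Prf1 window by 5.6%, and the TATA box in the Ifng window by 11.8%. Genes that were not lower held some of the same letters: the NFAT core stood in the Nkg7 and Cd3e windows and the CRE core in that of Cd3e. The T-box core, held by 3.1% of windows, had no match in the 4. A match is a description of letters and not a bound site.

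The targeted gene is a check of the labels. Bicd2 was at 4.14, 3.43 and 3.13 FPKM across Sc3, Sc4 and Sc5 and at 3.61, 2.57 and 2.97 FPKM across sh1, sh3 and sh6, so the groups overlapped (two-sided exact permutation p = 0.4; 3 against 3 cannot go below 0.1). "shBicd2" therefore means the libraries labelled so. Library sh1 stood apart: over the rows tested, which are not independent replicates, its Pearson correlation with the other libraries was 0.914 to 0.949, against 0.957 to 0.987 among the others. Read depths, recovered from the spacing of low FPKM, were 16.03 to 18.93 M reads, and 3 reads were worth 0.0277 FPKM (Il2ra in sh6) to 0.205 FPKM (Nkg7 in Sc5), depending on the gene's exon length. All 60 values of the 10 genes came from whole reads, between 2 and 170 of them. Intervals given on reads cover counting error only.

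Ifng, the defining cytokine of T helper 1 and NK cells, had the largest log2 fold change of the 10 genes (GRCm38 chromosome 10, 118441046 to 118445892, plus strand). It was at 1.74, 1.77 and 0.578 FPKM across Sc3, Sc4 and Sc5, from 40, 41 and 12 reads. In sh1, sh3 and sh6 it was at 0.338, 0.418 and 0.0816 FPKM, from 8, 9 and 2 reads. The groups did not overlap, with Sc5 nearest to the shBicd2 libraries, and the value of sh6 lay below that of 3 reads (0.122 FPKM). The means were 1.36 ± 0.677 and 0.279 ± 0.176 FPKM (SD, n = 3), and the log2 fold change, shBicd2 minus scramble on log2(FPKM + 0.1), was -1.94 ± 0.54 (SE). Its adjusted p in limma was 0.245, so it did not pass. Summed over libraries and divided by depth, 19 shBicd2 reads against 93 scramble reads gave a ratio of 0.196 (95% exact interval 0.113 to 0.324). In bulk tissue, fewer T or NK cells and less RNA of a gene per cell cannot be told apart, here and for the genes that follow.

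Of the granule genes, the transcripts of Gzmb and Prf1 were lower in each shBicd2 library without passing the test, and those of Nkg7 overlapped; the difference between these genes was not tested. Gzmb encodes granzyme B, the protease that starts apoptosis in the target cell, and was the most abundant of the 10 (chromosome 14, 56258838 to 56262260, minus strand). It was at 4.34, 6.60 and 4.73 FPKM across Sc3, Sc4 and Sc5 and at 4.08, 4.11 and 3.46 FPKM across sh1, sh3 and sh6. The highest shBicd2 library lay just under the lowest scramble library, and Sc4 stood above the rest. Its log2 fold change was -0.40 ± 0.21 (SE; limma adjusted p = 0.443), or -0.22 without Sc4, and the groups overlapped once median-of-ratios size factors were applied.

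Prf1, perforin, forms the pore through which granzymes enter (chromosome 10, 61297833 to 61304680, plus strand). Its values were 0.435, 0.755 and 0.459 FPKM across Sc3, Sc4 and Sc5 and 0.403, 0.210 and 0.307 FPKM across sh1, sh3 and sh6, from 9 to 35 reads. Again Sc4 was the highest, and sh1 came within a few reads of Sc3, with 19 against 20. The log2 fold change was -0.67 ± 0.31 (SE; limma adjusted p = 0.392), and it was -0.46 without Sc4.

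Nkg7 encodes a membrane protein of cytotoxic granules (chromosome 7, 43437073 to 43438249, plus strand). It was at 1.17, 2.20 and 2.39 FPKM across Sc3, Sc4 and Sc5 and at 2.16, 1.65 and 1.97 FPKM across sh1, sh3 and sh6. The shBicd2 values lay inside the scramble range, and both group means were 1.92 FPKM (SD 0.656 and 0.258, n = 3). The ratio of its reads per depth was 1.02, with a 95% exact counting interval of 0.753 to 1.37.

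Klrd1, CD94, pairs with NKG2 proteins in receptors of NK cells and some CD8 T cells (chromosome 6, 129591782 to 129598775, plus strand). It was at 0.658, 0.218 and 0.730 FPKM across Sc3, Sc4 and Sc5 and at 0.684, 0.611 and 0.619 FPKM across sh1, sh3 and sh6. Only Sc4, with 5 reads, differed from the other 5 libraries, which held 13 to 16 reads. The fitted difference, 0.33 ± 0.39 on the log2 scale (SE; limma adjusted p = 0.748), turned to -0.11 without Sc4.

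Both interleukin 2 receptor chains among the 10 genes were lower in every shBicd2 library. Il2ra (chromosome 2, 11642807 to 11693193, plus strand) lay at 0.522, 0.518 and 0.437 FPKM across Sc3, Sc4 and Sc5, a narrow range from 40 to 53 reads. The shBicd2 values were lower, at 0.0767, 0.348 and 0.194 FPKM across sh1, sh3 and sh6, from 8, 33 and 21 reads, a wider spread than in scramble. Its means were 0.492 ± 0.0478 and 0.206 ± 0.136 FPKM (SD, n = 3), and 62 against 146 reads gave a ratio per depth of 0.408 (95% exact interval 0.298 to 0.553). The log2 fold change was -1.05 ± 0.37 (SE; limma adjusted p = 0.287) with all libraries and -0.70 without sh1, the lowest. Over all alternatives it ran from -1.49 to -0.31, the latter with a pseudocount of 1.

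Il2rb, shared by the receptors of interleukin 2 and interleukin 15 (chromosome 15, 78479256 to 78495271, minus strand), was at 1.04, 1.43 and 1.18 FPKM across Sc3, Sc4 and Sc5. In sh1, sh3 and sh6 it was at 0.945, 0.674 and 0.702 FPKM. Here sh1 was the shBicd2 library nearest to scramble, the reverse of its place for Il2ra. With 48 to 110 reads per library this was the second best counted of the 10 genes, and its log2 fold change was -0.59 ± 0.24 (SE; limma adjusted p = 0.336).

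The markers of T cell identity showed no such separation toward lower values. Cd3e, a signalling chain of the T cell receptor complex (chromosome 9, 44998740 to 45009627, minus strand), was the lowest of the 10, at 0.110, 0.0820 and 0.0764 FPKM across Sc3, Sc4 and Sc5. In shBicd2 it was at 0.121, 0.133 and 0.129 FPKM across sh1, sh3 and sh6. All shBicd2 values lay above all scramble values, but these are 5 to 8 reads against 9 to 10 reads. The ratio of reads per depth was 1.42, with a 95% exact interval of 0.764 to 2.69 that spans no difference, and the log2 fold change was 0.27 ± 0.26 (SE; limma adjusted p = 0.690). On the TPM scale the groups overlapped.

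Cd4, the co-receptor of helper T cells that some mouse dendritic cells also carry (chromosome 6, 124864692 to 124888221, minus strand), was at 0.153, 0.0968 and 0.201 FPKM across Sc3, Sc4 and Sc5 and at 0.231, 0.284 and 0.197 FPKM across sh1, sh3 and sh6. Only Sc5 reached into the shBicd2 range, and the log2 fold change was 0.44 ± 0.29 (SE; limma adjusted p = 0.531). Cd8a, the co-receptor chain of cytotoxic T cells (chromosome 6, 71373427 to 71379173, plus strand), had values of 0.263, 0.261 and 0.189 FPKM across Sc3, Sc4 and Sc5 and of 0.738, 0.149 and 0.203 FPKM across sh1, sh3 and sh6. Library sh1 held 49 reads of Cd8a and the other 5 libraries 9 to 17. The log2 fold change was 0.25 ± 0.47 (SE; limma adjusted p = 0.848), and it was -0.29 without sh1.

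**Figure D1:**
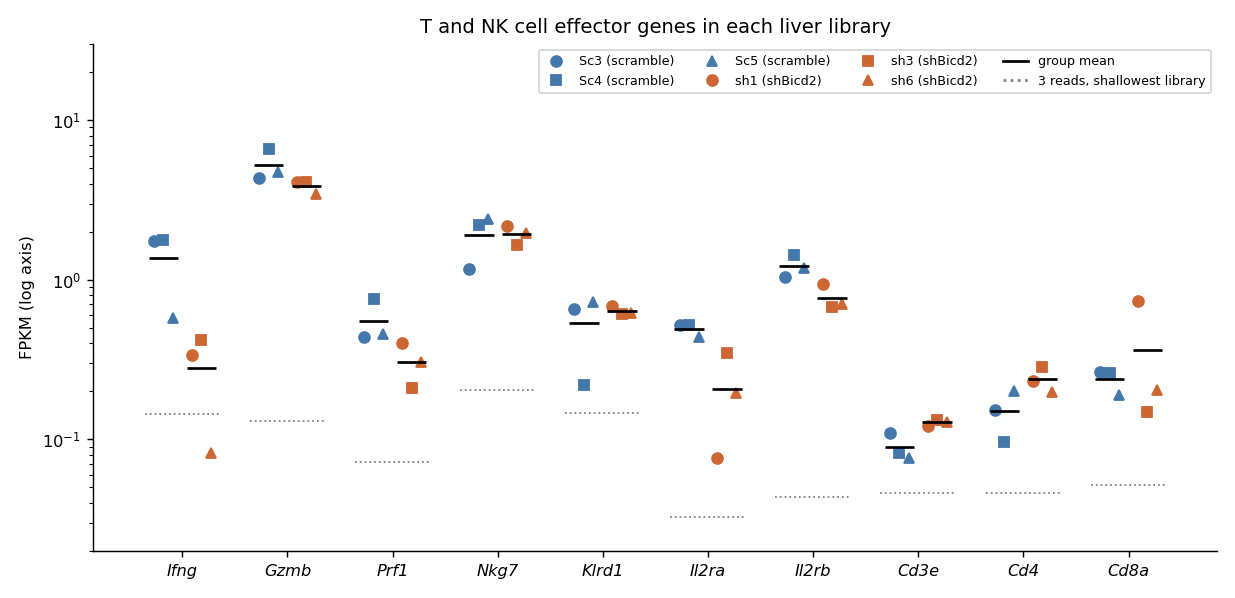
FPKM of the 10 genes (log axis) in each library, scramble in blue and shBicd2 in orange, with the group mean as a black bar and the FPKM of 3 reads in the shallowest library as a dotted line. Ifng, Gzmb, Prf1, Il2ra and Il2rb show no overlap with shBicd2 lower, Cd3e shows none with shBicd2 higher, and 1 value, Ifng in sh6, lies under its dotted line.

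In all, 5 of the 10 genes were lower in shBicd2 with no overlap of the groups, where 16.9% of the 13835 rows tested were so. Another gene, Cd3e, was higher with no overlap, where 5.33% of rows were so. Limma called 0 of the 10 genes and 0% of all rows at an adjusted p of 0.05, and the smallest adjusted p over all rows was 0.0772. At an unadjusted p below 0.05 it gave 3 of the 10 genes (Ifng, Il2ra and Il2rb), each lower, against 11.1% of all rows that were lower at that level; 0 of the 10 were higher at that level, against 2.86% of all rows. Over all rows 1932 of 13835 (14%) reached that level in either direction. The count of 3 was 1 without Sc3, Sc4 or sh6, where 993, 1361 and 1785 rows reached it. It was 2 without Sc5 or sh3 (953 and 3057 rows) and 4 without sh1 (2267 rows). On the TPM scale it was 5 (2331 rows), and without trend 4 (1904 rows). Voom on the recovered reads called 0 of the 10 genes and had 2 at that unadjusted level, beside 1954 of 13413 rows. The median log2 fold change of the 10 genes was -0.17 and that of all rows -0.08, and 5 of the 10 differences were negative, against 58% of all rows. Leaving out a library cannot make separated groups overlap. The same 5 genes therefore had to stay lower without overlap when sh1 was left out (26.7% of all rows were so) or sh3 (23% of all rows).

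**Figure D2:**
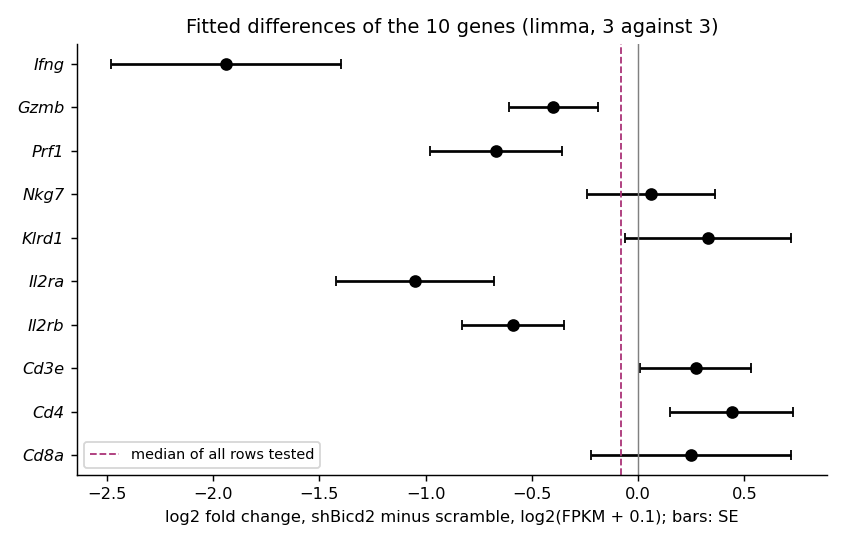
Log2 fold change (shBicd2 minus scramble, on log2(FPKM + 0.1)) of each of the 10 genes, with its SE as a bar and the median of all rows tested, -0.08, as a dashed line. Ifng at -1.94 and Il2ra at -1.05 lie farthest to the left, and Nkg7, Klrd1, Cd3e, Cd4 and Cd8a lie between 0.06 and 0.44.

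FPKM is scaled by length, so levels can be ordered between genes, although a gene whose usual transcript is shorter than the union of its annotated exons reads too low. By scramble mean the order was Gzmb (5.23 ± 1.21 FPKM, SD, n = 3), Nkg7 (1.92 ± 0.656), Ifng (1.36 ± 0.677), Il2rb (1.22 ± 0.200), Prf1 (0.550 ± 0.178), Klrd1 (0.535 ± 0.278), Il2ra (0.492 ± 0.0478), Cd8a (0.237 ± 0.0422), Cd4 (0.150 ± 0.0522) and Cd3e (0.0896 ± 0.0181). Nkg7, Ifng and Il2rb do not differ beyond their spread, nor do Prf1, Klrd1 and Il2ra. By shBicd2 mean Gzmb (3.88 ± 0.367) and Nkg7 (1.92 ± 0.258) still led and Cd3e (0.128 ± 0.00620) was still last. Ifng moved down the order in shBicd2, where Cd8a (0.363 ± 0.325), Prf1 (0.306 ± 0.0965), Ifng, Cd4 (0.237 ± 0.0439) and Il2ra do not differ beyond their spread.

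The effector genes were also set against the CD3 chains, whose summed level (Cd3d, Cd3e, Cd3g and Cd247) was 0.411, 0.472 and 0.471 FPKM across Sc3, Sc4 and Sc5 and 0.690, 0.413 and 0.428 FPKM across sh1, sh3 and sh6. Ifng per CD3 level was 4.23, 3.74 and 1.23 in scramble and 0.490, 1.01 and 0.190 in sh1, sh3 and sh6. Il2ra per CD3 level was 1.27, 1.10 and 0.928 in Sc3, Sc4 and Sc5 and 0.111, 0.841 and 0.453 in sh1, sh3 and sh6. Il2rb per CD3 level was 2.50 to 3.03 in scramble and 1.37 to 1.64 in shBicd2, and Prf1 was 0.975 to 1.60 and 0.507 to 0.716. Gzmb per CD3 level came close, with 10.1 to 14 against 5.91 to 9.94. On this scale these 5 genes were lower with no overlap, where 15% of all rows were so, while Nkg7 and Klrd1 overlapped. The 5 were already separated by FPKM, and the CD3 sum differed little between libraries except for its higher value in sh1. That value can only lower the ratios of sh1, so the ratio is not a separate result. The CD3 sum rests on few reads, and no test was run on the ratio.

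**Figure D3:**
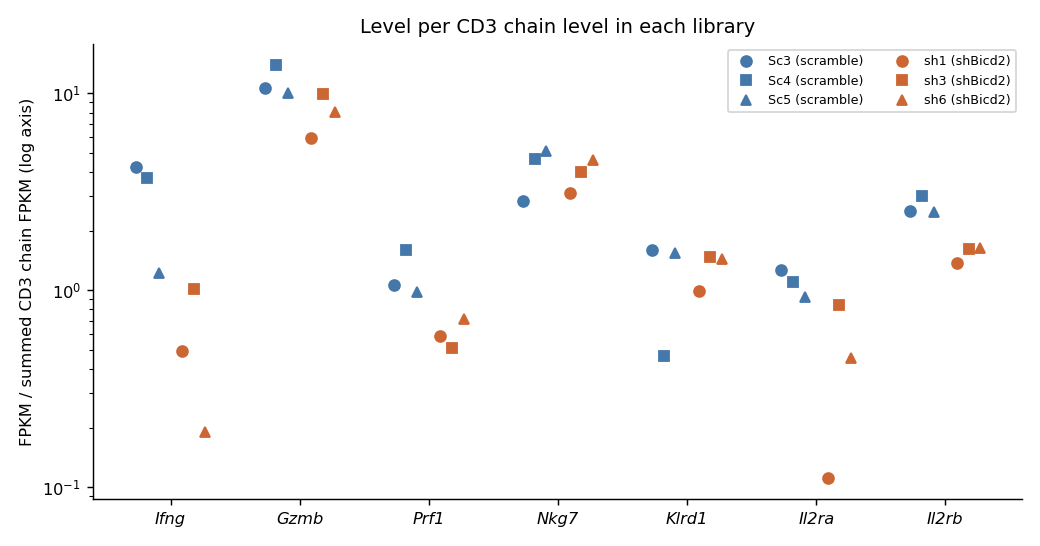
FPKM of 7 effector and receptor genes divided by the summed FPKM of the CD3 chains in the same library (log axis), scramble in blue and shBicd2 in orange. The 3 shBicd2 points lie below the scramble points for Ifng, Gzmb, Prf1, Il2ra and Il2rb and among them for Nkg7 and Klrd1.

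Other genes of the same pathways were read from lists of textbook members, also chosen with earlier results of these data known. None of their tested genes passed in either direction. Of the T cell receptor list, 22 of 25 genes were in the table and 15 were tested, with 8 positive and 7 negative differences and a median log2 fold change of 0.00, which was -0.29 without sh1. The other CD3 chains overlapped between groups: Cd3d was at 0.186, 0.246 and 0.137 FPKM across Sc3, Sc4 and Sc5 and at 0.302, 0.0995 and 0.116 FPKM across sh1, sh3 and sh6. Lck, the kinase that starts receptor signalling, was at 0.403 to 0.476 FPKM in scramble and 0.267 to 0.673 FPKM in shBicd2. The 2 genes of smallest p in the list were Lcp2, the adaptor SLP-76, which myeloid cells and platelets also express (-0.56 ± 0.25 SE, limma adjusted p = 0.387), and the co-stimulatory receptor Cd28. Cd28 was at 3.82, 3.57 and 4.77 FPKM across Sc3, Sc4 and Sc5 and at 0.197, 2.44 and 2.58 FPKM across sh1, sh3 and sh6 (-1.71 ± 0.79 SE, adjusted p = 0.392), and most of this difference lay in sh1.

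Of the list of cytotoxic granule genes and NK receptors, 23 of 29 genes were tested, with 8 positive and 15 negative differences and a median of -0.28, which was -0.04 without sh6 and -0.44 without sh1. In 7 of them shBicd2 was lower with no overlap: Gzmb, Prf1, Gzma, Klrc1, Klre1, Srgn and Stx11, against 16.9% of all rows. Klre1 held 6 reads in both Sc4 (0.0958 FPKM) and sh1 (0.094 FPKM), so only library depth kept its groups apart. The exact counting interval of its read ratio, 0.318 to 1.26, spans no difference. Klrc1 rested on 3 to 13 reads per library, with an interval of 0.206 to 0.856. Gzma, granzyme A, was at 4.19, 2.88 and 3.29 FPKM across Sc3, Sc4 and Sc5 and at 2.61, 1.85 and 2.47 FPKM across sh1, sh3 and sh6. Srgn, serglycin, the proteoglycan that packs granule contents in many leukocytes, had the smallest p, at 27.5, 31.1 and 38.9 FPKM against 8.40, 20.7 and 14.3 FPKM (-1.24 ± 0.32 SE, limma adjusted p = 0.238). Stx11, a syntaxin needed for granule release, followed at -1.19 ± 0.39 (SE; adjusted p = 0.269). Ncr1, the NK receptor NKp46, was at 0.604 FPKM in sh1 and at 0.146 to 0.203 FPKM in the other 5 libraries.

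The interleukin 2 and 15 receptor list had 13 of 15 genes tested, 3 positive and 10 negative, with a median of -0.55 (-0.36 without sh1). In 6 of these genes shBicd2 was lower with no overlap, against 16.9% of all rows. The 6 were Il2ra and Il2rb, already given above, and Jak1, Stat5a, Stat5b and Il4ra. The gamma chain Il2rg did not follow the alpha and beta chains: it was at 2.10, 2.52 and 1.28 FPKM across Sc3, Sc4 and Sc5 and at 2.71, 1.46 and 1.44 FPKM across sh1, sh3 and sh6. The kinase Jak1, which many cytokine receptors use, was at 23.6, 22.9 and 26.5 FPKM against 14, 20.7 and 14.5 FPKM (-0.59 ± 0.19 SE, limma adjusted p = 0.271). Stat5a, the transcription factor that interleukin 2 activates, was at 4.22, 4.42 and 5.26 FPKM against 2.56, 3.76 and 1.75 FPKM (-0.82 ± 0.29 SE, adjusted p = 0.286). Hepatocytes and myeloid cells express both of these genes as well.

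T cell activation and checkpoint genes had 17 of 21 tested, 2 positive and 15 negative, with a median of -0.66 (-0.41 without sh1). Tnfrsf9, the activation receptor 4-1BB, was at 4.98, 5.63 and 8.18 FPKM across Sc3, Sc4 and Sc5 and at 0.463, 2.17 and 1.38 FPKM across sh1, sh3 and sh6 (-2.33 ± 0.49 SE, limma adjusted p = 0.216). Cd274, the checkpoint ligand PD-L1, was at 30.1, 39.0 and 27.3 FPKM against 15.7, 19.2 and 11.0 FPKM (-1.09 ± 0.24 SE, adjusted p = 0.222). Neither is limited to T cells. Of 19 tested genes for the making and sensing of interferon gamma, Ifng itself among them, 15 were negative, with a median of -0.94. The receptor chain Ifngr1 was at 14.6, 12.1 and 17.2 FPKM against 7.65, 8.56 and 5.99 FPKM (-0.97 ± 0.21 SE, adjusted p = 0.216). The interferon gamma target Cxcl9 had the smallest p of that list (-1.35 ± 0.26 SE, adjusted p = 0.216). Tbx21, the T-bet factor that drives Ifng transcription, was at 0.316, 0.247 and 0.201 FPKM against 0.132, 0.387 and 0.297 FPKM and overlapped.

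**Figure D4:**
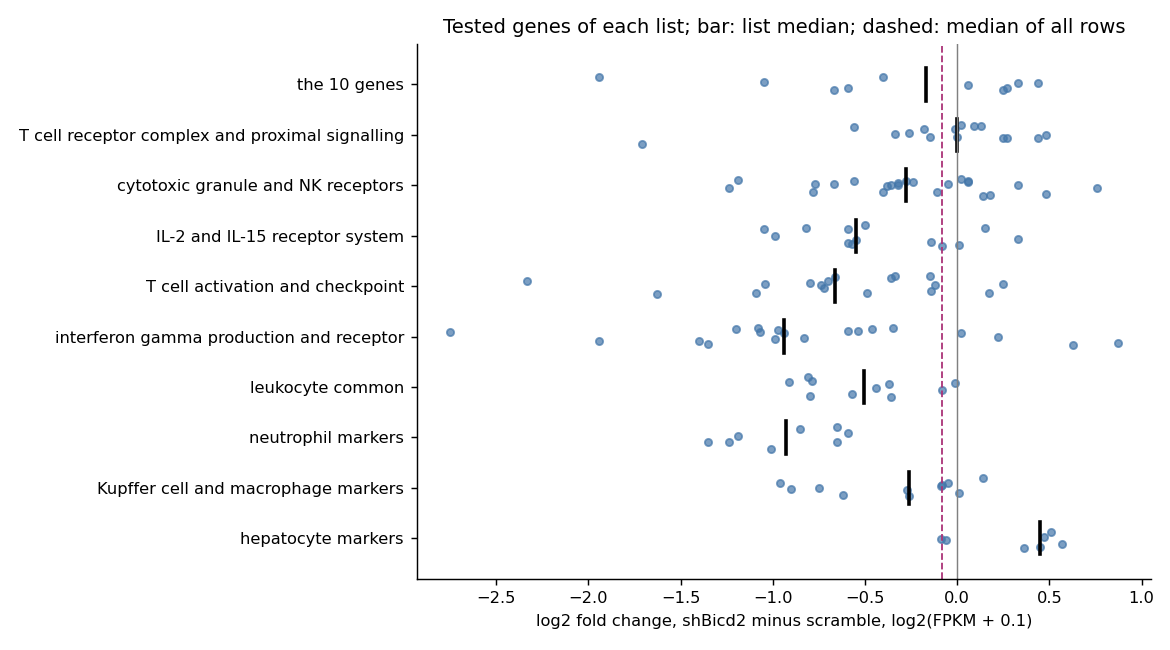
Log2 fold change (shBicd2 minus scramble) of each tested gene, by list, with the list median as a black bar, 0 as a grey line and the median of all rows, -0.08, as a dashed line. The T cell receptor list centres on 0.00, while the activation list (-0.66), the interferon gamma list (-0.94) and the neutrophil list (-0.93) lie to the left; without sh1 the T cell receptor and activation lists are at -0.29 and -0.41.

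General leukocyte and neutrophil markers were mostly lower beside these genes. Macrophage markers were mostly negative too, with a smaller median difference, while markers of dendritic cells and B cells were mixed. Over all rows 58% of differences were negative and the median was -0.08. The part of these cells in the results was not tested. General leukocyte genes had 10 of 10 negative differences (median -0.51, and -0.78 to -0.37 without 1 library). Their summed level was 57.1 to 66.6 FPKM in scramble and 30.8 to 63.1 FPKM in shBicd2. Cd53, a leukocyte tetraspanin, had the smallest p there (-0.91 ± 0.19 SE, limma adjusted p = 0.216). Neutrophil markers had 8 of 8 negative, summed at 373 to 504 FPKM in scramble and 149 to 421 FPKM in shBicd2 (median log2 fold change -0.93, or -0.62 without sh6), led by Cxcr2 (-1.19 ± 0.22 SE) and Ly6g (-1.01 ± 0.21 SE). Kupffer cell and macrophage markers had 9 of 11 negative (median -0.26, and -0.45 to -0.06 without 1 library), summed at 138 to 202 and 99.9 to 267 FPKM. Adgre1 (-0.90) and Cd68 (-0.96) came first, and Marco (-0.75), Clec4f (-0.62), Cd5l (-0.27) and Timd4 (-0.26) were also negative. Csf1r (-0.09), C1qb (-0.08), Vsig4 (-0.05), C1qa (0.01) and Lyz2 (0.14) were near 0 or positive. Dendritic cell markers had 3 of 5 negative (median -0.10, and -0.67 to 0.34 without 1 library), summed at 20.7 to 30.2 and 11.8 to 20.9 FPKM, with Irf8 (-0.92) and Batf3 (0.53) first. B cell markers had 2 of 4 negative (median 0.01, and -0.33 to 0.27 without 1 library), summed at 3.87 to 10.3 and 4.39 to 11.7 FPKM, with Ighm at -0.17. Hepatocyte markers went the other way in 5 of 7 genes, with Apoa1 at 0.57 and Ttr at 0.51, while Cps1 (-0.06) and Hnf4a (-0.09) were negative. They summed at 21458 to 27335 FPKM in scramble and 27879 to 35031 FPKM in shBicd2. Most of that sum was Alb (means 17384 FPKM in scramble and 22205 FPKM in shBicd2), whose groups overlapped. Red cell markers had 3 of 4 negative, with Hbb-bt at -0.64 and Hba-a2 at 0.42.

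The genes with the pattern most like that of Ifng over the 6 libraries, among 10610 genes with at least 50 reads or 1 FPKM on average, were Nlgn2 (Pearson r = 0.996 on log2(FPKM + 0.1)), Nfatc1 (0.985), Sema4d (0.980), Zfp113 (0.973) and Csf3r (0.971). Nfatc1, a member of the NFAT family of activation factors, was at 2.53, 2.57 and 1.91 FPKM across Sc3, Sc4 and Sc5 and at 1.91, 1.97 and 1.5 FPKM across sh1, sh3 and sh6, a much narrower range than that of Ifng. For Cd3e they were Polr3e (0.979), Ccdc162 (0.965), Zfp972 (0.952), Mettl9 (0.951) and Abt1 (0.951). These points share libraries, depth and group.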

How the data were processed

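Liver RNA was sequenced on an Illumina NovaSeq from TruSeq libraries, 3 per group, per the labels' protocols. The submitters' processing notes name HISAT2 2.0.5, featureCounts 1.5.0-p3 and the build mm10; how annotation, strand and multi-mapped reads were handled is not given in the sources used here. What the authors deposited is FPKM, 1 column per library, with 0 columns of other samples. Column names give the group but no labelled replicate number.

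Exon lengths came from GENCODE M21 (GRCm38) for 14339 rows. The smallest depth that made low FPKM values whole reads was taken per library. With them, values under 50 reads came within 0.02 of a whole number for 98.7% to 99.4% of single-exon genes and 97.6% to 97.8% of the others. FPKM is scaled to each library's total, so abundant genes can shift the rest.

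Rows with a mean of at least 0.1 FPKM (13835) were tested on log2(FPKM + 0.1) with limma 3.58.1 in R 4.3.3 (eBayes with trend, two-sided, Benjamini-Hochberg over all rows, threshold 0.05). Single values were compared by exact two-sided permutation. Intervals of read ratios are exact Clopper-Pearson intervals at 95%. The script was tested on simulated data. Alternatives were pseudocounts of 1 and 0.01, other filters, TPM scale, median-of-ratios size factors, no trend, array weights, voom on recovered reads and leaving out each library; counts of genes without overlap under them were added after seeing the data.

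The 10 genes, lists and motifs were chosen with earlier results of these data known. From each list the 2 tested genes of smallest p outside the 10 were named, except some that are not reported here; Cd3d, Lck, Gzma, Ncr1, Il2rg, Tbx21 and the genes without overlap were chosen after their values were seen. Plots used matplotlib 3.10.9 (Python 3.11.15).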

Additional observations from a re-analysis of the deposited data

How the results depend on the processing

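No paired analysis was possible because the columns of the table carry no labelled replicate number. None of the 10 genes passed an adjusted p of 0.05 under any alternative but array weights. Those called 3 of the 10 (Ifng, Il2rb and Il2ra, each lower) beside 3241 of all 13835 rows, and their estimation stopped before converging. The weight of sh6 was 5.07, and those of sh1 and sh3 were 0.191 and 0.294. In shBicd2 that fit therefore leaned on sh6, where Ifng had 2 reads. A mean of at least 1 FPKM left only Gzmb and Nkg7 tested. The count over all rows, 0, became 1 with a pseudocount of 1, 1 without trend and 3241 with array weights (930 higher and 2311 lower). Leaving out 1 library gave 0 to 254 calls, the highest without sh3 (27 higher and 227 lower). The number of the 10 genes lower without overlap was 5 on the TPM scale, where 22.2% of all rows were so. It was 4 with size factors (10.5% of all rows) and 5 to 6 without 1 library (19.2% to 26.7%). The number higher without overlap was 0 on the TPM scale (3.47% of all rows) and 1 with size factors (10.9%). It was 1 to 2 without 1 library (7.06% to 19.8% of all rows), where Cd4 joined Cd3e without Sc5 or sh6. Leaving out a library cannot make separated groups overlap, so both counts could only stay or rise there. Ifng kept its sign under 14 alternatives, at -2.88 to -0.85 (limma adjusted p from 0.00267 to 0.707), with both lowest values from array weights. Gzmb (-0.52 to -0.22), Prf1 (-0.86 to -0.24), Il2ra (-1.49 to -0.31), Il2rb (-0.73 to -0.32), Cd3e (0.05 to 0.49) and Cd4 (0.11 to 0.67) kept theirs in all that were run. Apart from Cd4, these genes and Ifng had groups without overlap. Pseudocounts, filters, weights and leaving out a library could therefore not turn their sign, and only rescaling or voom could have. The sign of Nkg7 turned on the TPM scale (-0.03), and it ran from -0.25 to 0.24 without 1 library. Cd8a turned with array weights (-0.14) and ran from -0.29 to 0.59 without 1 library, and Klrd1 ran from -0.11 to 0.59; the cause was not tested. Cd3e, Cd4, Cd8a and Prf1 rest on 5 to 49 reads per library, Ifng on 2 to 41 and Klrd1 on 5 to 16. Differences of a few reads were therefore not detectable in these genes.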

Other observations

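Ccl5, a chemokine of activated T and NK cells, had a positive difference with overlapping groups: it was at 2.28, 3.08 and 4.03 FPKM across Sc3, Sc4 and Sc5 and at 3.25, 7.90 and 5.61 FPKM across sh1, sh3 and sh6 (log2 fold change 0.76 ± 0.35 SE, limma adjusted p = 0.392). Il18, which drives interferon gamma production together with interleukin 12, was higher with no overlap, at 3.22, 3.73 and 4.48 FPKM against 11.7, 6.01 and 4.87 FPKM (0.87 ± 0.33 SE, adjusted p = 0.311), while its receptor chain Il18rap was at 0.816, 1.20 and 1.24 FPKM against 0.349, 0.972 and 0.368 FPKM. The interleukin 12 receptor chain Il12rb2 was at 0.207, 0.632 and 0.263 FPKM against 0.0289, 0.143 and 0.181 FPKM (-1.07 ± 0.45 SE, adjusted p = 0.347). These genes were chosen after their values were seen.

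Library sh1 held the highest value of 6 of the 15 tested T cell receptor genes, among them Cd8a, Cd2, Cd3d and Lck. Sc5 also held the highest of 6 of them. Of 17 activation genes, sh1 held the lowest value of 7 and sh6 that of 9. How often each library was the extreme over all rows was not counted. Cd28 exceeded Cd3e by far in 5 libraries, at 2.44 to 4.77 FPKM, and was at 0.197 FPKM in sh1, where Cd3e was at 0.121 FPKM.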
